A study of Mus musculus with 5 samples.

Results

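The genes described here encode the machinery that builds the mitotic spindle and pulls the copied chromosomes apart, and their signals were followed across the 5 arrays of a study of splenic CD4 T cells from BALB/c mice. Of 53 genes listed by name, 52 had at least 1 probe set on the Affymetrix mouse array whose single platform gene symbol was that gene, out of 18193 genes on the array, and they were read by 117 probe sets. Cyclin B1 (Ccnb1) was not analysed here. The arrays held TOFA effector Th1 cells, Rap effector Th1 cells, control effector Th1 cells, memory Th1 cells and naive CD4 T cells, with 1 array for each. Per the labels, splenic CD4 T cells were cultured under Th1 conditions for 5 days with IL-2 at 15 ng/ml and IL-12 at 10 ng/ml. The labels attach this protocol to all 5 samples, and the titles do not say which of them were cultured. Memory and naive cells are called resting below, a word that the labels do not give. TOFA inhibits acetyl-CoA carboxylase, the enzyme named Acc1 in the study's title, which makes the malonyl-CoA used for fatty acid synthesis. The labels do not expand the name Rap. No dose, and no age or number of mice behind an array, is given in the sources used here.

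In a cycling cell, cyclin A and cyclin B with the kinase Cdk1 drive entry into mitosis, and condensins and topoisomerase II compact the chromosomes. Kinetochores then attach each chromosome to spindle microtubules while the checkpoint proteins hold back the anaphase-promoting complex. Once all are attached, Cdc20 activates that complex, separase cuts cohesin, the chromosomes part and the midzone kinesins prepare cytokinesis. Most of these genes are transcribed late in the cycle, when the MuvB complex with B-Myb and FoxM1 acts at their promoters, and they are shut in resting cells by the DREAM form of MuvB. Naive T cells rest outside the cycle and divide rapidly once activated.

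Every value is a linear signal per probe set after quantile normalization of the 5 arrays, and signals under 43.4, the 40th percentile, were raised to that floor for differences. Each gene is represented by its brightest probe set, so signals can be compared between arrays for 1 gene but not between genes. With 1 array per group there was no replicate of any condition, no test was possible, and differences are descriptions of these 5 arrays, given as log2 values or folds. The spread between probe sets of 1 gene, which share the same RNA, is the only error that could be measured. It leaves out whatever differs between whole samples. In bulk RNA, a smaller share of dividing cells and less RNA per dividing cell cannot be told apart.

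The array median as deposited was 63.1 for TOFA, 66.9 for Rap and 68.7 for control effector cells, 99.5 for memory and 74.2 for naive cells. As a sign of RNA quality, the 3'/5' ratio was 0.832 to 0.918 for the Gapdh control probe sets and 1.26 to 1.45 for those of actin. All 6 matched CD4 T cell markers (Cd3e, Cd4, Lck and others) were above the floor on every array. The memory array also carried markers of other cells. Its 9 myeloid markers, such as Lyz2 and C1qa, summed to a signal of 83898, against 1317 in naive cells and between 262 and 529 in the 3 effector arrays, and 9 of 9 were above the floor. The 7 matched B cell markers summed to 47963 in memory and 31904 in naive cells, and to between 1803 and 2453 in effector cells. The 7 neutrophil markers summed to 12499 in memory and 5752 in naive cells, and to at most 193 in effector cells.

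Effector cells carried the mitotic programme, and both resting populations had little of it. The median signal over the 52 genes was 2463 in TOFA, 3285 in Rap and 3045 in control effector cells, against 153 in memory and 148 in naive cells. All 52 genes were above the 60th percentile of all signals, 150.5, on each of the 3 effector arrays, against 26 in memory and 25 in naive cells. Of the 14522 genes above the floor on at least 1 array, between 60.9% and 61.8% passed that level on the effector arrays, 62.6% on the memory and 58.6% on the naive array. For 51 of 52 genes each effector array was above both resting arrays, as for 27.2% of those 14522 genes, and the exception was the condensin subunit Smc4.

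**Figure D1:**
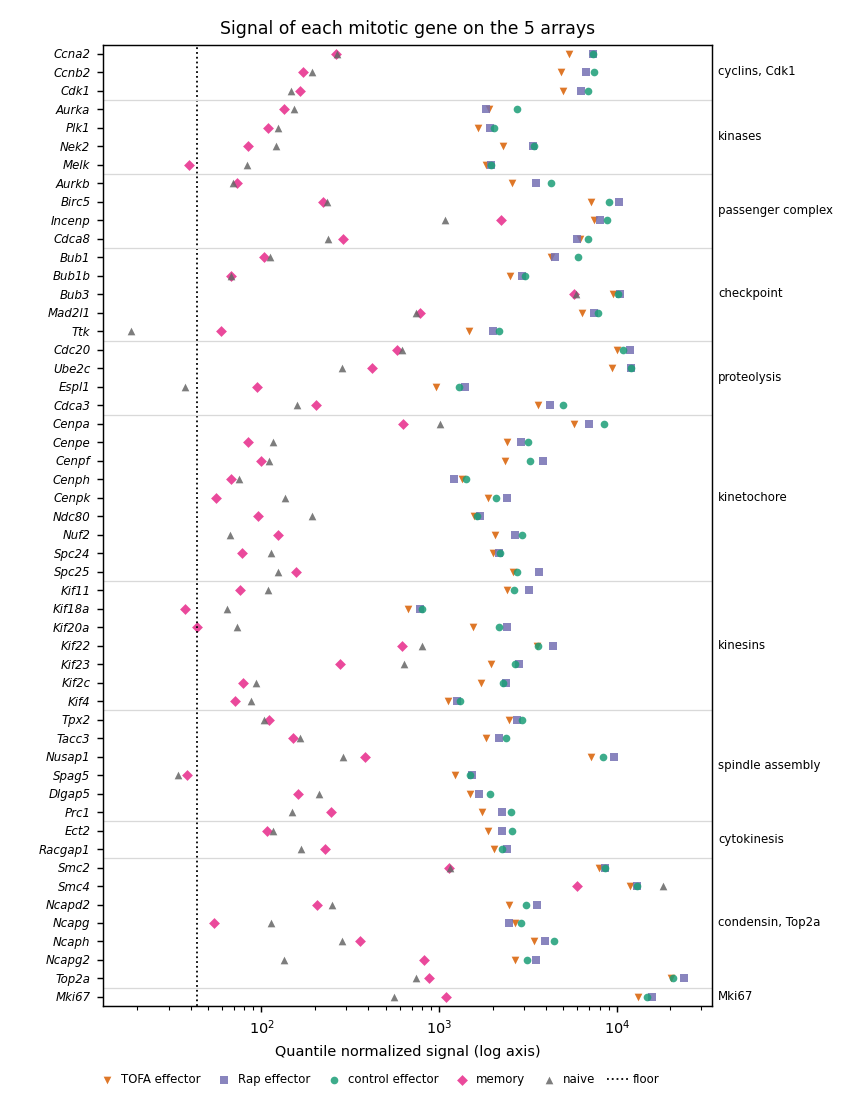
Signal of each of the 52 genes on each of the 5 arrays, on a log scale, with genes grouped by role and the floor marked. The 3 effector arrays lie above the memory and naive arrays for every gene except Smc4, and within the effector arrays TOFA is the lowest for 48 genes, as for 30.1% of the 14522 genes above the floor.

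In control effector against naive cells, 50 of 52 genes had at least a 2-fold higher signal, as did 15.9% of the 13070 genes compared, and 0 had at least a 2-fold lower one, as did 11.4%. The median difference was 4.56 on the log2 scale, or 23.5-fold, and the median over all genes compared was 0.04. The median by role was 5.49 for the spindle checkpoint, 5.26 for cyclins and Cdk1, 5.06 for the chromosomal passenger complex and 4.93 for mitotic proteolysis. It was 4.46 for spindle assembly factors, 4.36 for kinases, 4.28 for kinetochore proteins, 4.11 for cytokinesis, 3.98 for condensins with Top2a and 3.90 for kinesins. Of 111 probe sets above the floor in at least 1 of these arrays, 104 were higher and 97 at least 2-fold. The B cell, dendritic and neutrophil markers moved the other way, with sums of 1803, 2564 and 185 in control effector and 31904, 9391 and 5752 in naive cells, and their part in these differences was not tested.

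Since nearly all of these genes moved together, the letters of their promoters were searched for the elements known from late cell cycle genes. The windows, from RefSeq on GRCm38.p6, ran from 250 bases before to 50 bases after each start, and 44 of the 52 genes had one. The cell cycle homology region (CHR), bound by MuvB, was searched as TTTGAA or TTCGAA on both strands, and the CCAAT box, bound by NF-Y, as CCAAT on both strands. Of 42 CHR matches in these 44 windows, 1 shares letters with a CCAAT match. Below are the 150 bases before the start, 5′ to 3′ on the strand of the gene, with matches in capitals, for Cdk1 (chr10:69352913-69353062, minus strand), Cdc20 (chr4:118437344-118437493, minus strand), Ube2c (chr2:164769779-164769928, plus strand), Top2a (chr11:99024190-99024339, minus strand), Mki67 (chr7:135716380-135716529, minus strand), Bub3 (chr7:131560220-131560369, plus strand) and Mad2l1 (chr6:66535071-66535220, plus strand). The first 5 are widely used proliferation genes that were all over 17-fold higher in effector cells. Bub3 holds both elements and differed by 1.73-fold, and Mad2l1 holds neither and was 10.5-fold higher.
Cdk1: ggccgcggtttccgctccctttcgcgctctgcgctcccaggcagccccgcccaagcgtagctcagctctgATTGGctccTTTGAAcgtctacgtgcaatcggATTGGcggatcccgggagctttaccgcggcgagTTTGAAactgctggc
Cdc20: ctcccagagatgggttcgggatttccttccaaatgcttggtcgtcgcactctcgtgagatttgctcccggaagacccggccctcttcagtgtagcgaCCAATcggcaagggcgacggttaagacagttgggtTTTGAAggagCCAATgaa
Ube2c: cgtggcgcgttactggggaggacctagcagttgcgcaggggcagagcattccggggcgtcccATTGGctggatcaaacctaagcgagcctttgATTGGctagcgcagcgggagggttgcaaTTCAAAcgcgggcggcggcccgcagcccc
Top2a: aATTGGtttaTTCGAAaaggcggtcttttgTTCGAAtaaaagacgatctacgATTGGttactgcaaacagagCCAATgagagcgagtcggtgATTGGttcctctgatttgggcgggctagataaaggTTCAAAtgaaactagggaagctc
Mki67: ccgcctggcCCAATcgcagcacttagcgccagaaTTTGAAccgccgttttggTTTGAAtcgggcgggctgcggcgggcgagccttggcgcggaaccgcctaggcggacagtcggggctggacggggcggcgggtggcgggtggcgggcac
Bub3: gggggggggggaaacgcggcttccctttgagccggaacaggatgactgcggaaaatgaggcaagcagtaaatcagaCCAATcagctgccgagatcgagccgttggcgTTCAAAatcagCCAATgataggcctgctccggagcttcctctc
Mad2l1: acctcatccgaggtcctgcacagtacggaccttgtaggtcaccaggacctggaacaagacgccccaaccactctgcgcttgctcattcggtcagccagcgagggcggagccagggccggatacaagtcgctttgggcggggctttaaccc

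A CHR match stood in 32 of the 44 windows, or 72.7%, against 19.4% of all 27025 windows of the same length and 14.1% of the 11656 windows of genes on the array. A CCAAT match stood in 33, or 75%, against 37.9% of all windows. Both stood together in 29 windows, or 65.9%, against 7.70%, and 8 genes had neither. Of the CHR matches, 29 lay within 50 bases of the start, with a median position of -17.5, and of 70 CCAAT matches 44 lay in the 100 bases before it, with a median of -61.5. Thus in the printed windows of Cdk1, Cdc20, Ube2c and Bub3 a CHR match lies close to the start with a CCAAT match upstream of it. The difference of control effector over naive cells had a median of 4.57 over the 32 genes with a CHR match and 4.40 over the 12 without. A link between the element and the difference was not tested, and Smc4 and Aurkb are among the genes that had no window. A match describes these letters only and is no evidence that a factor was bound.

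The cyclins and their kinase open mitosis. Ccna2, cyclin A2, had signals of 5399 in TOFA, 7334 in Rap and 7309.8 in control effector cells, 263 in memory and 266 in naive cells. Ccnb2, a B-type cyclin, had 4829 in TOFA, 6728 in Rap and 7422 in control effector cells, 172 in memory and 193 in naive cells. Cdk1 had 4957 in TOFA, 6334 in Rap and 6899.8 in control effector cells, 164 in memory and 148 in naive cells. The 3 genes were 27.5-fold, 38.4-fold and 46.8-fold above naive cells in control effector cells, and in each of them TOFA was the lowest of the effector arrays. Among the mitotic kinases, Plk1, which acts at centrosomes and kinetochores, had 1661 in TOFA, 1933 in Rap and 2047 in control effector cells, 109 in memory and 123 in naive cells. Aurka, the spindle pole kinase, had 1919 in TOFA, 1833 in Rap and 2731 in control effector cells, 134 in memory and 153 in naive cells. For Aurka both treated arrays lay below the control, with Rap the lower. Its dimmer probe set went the other way, with 70.1 in TOFA, 102 in Rap and 65.5 in control effector cells. Nek2, a kinase that parts the centrosomes, had 2298 in TOFA, 3359.8 in Rap and 3425 in control effector cells, 83.4 in memory and 121 in naive cells. Melk had 1843 in TOFA, 1950.2 in Rap and 1966 in control effector cells, a signal under the floor in memory and 83.4 in naive cells, so the effector arrays stood close together for this kinase.

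The chromosomal passenger complex corrects faulty attachments and later sits at the midzone. Its kinase Aurkb had signals of 2566 in TOFA, 3529.6 in Rap and 4266 in control effector cells, 72.8 in memory and 69.3 in naive cells. That is 61.6-fold above naive cells for the control effector array, the largest difference among the genes above the floor on both arrays. Birc5, or survivin, had 7130.2 in TOFA, 10302 in Rap and 9022 in control effector cells, 221 in memory and 235 in naive cells. Cdca8, or borealin, had 6220.5 in TOFA, 5994 in Rap and 6857 in control effector cells, 288 in memory and 237 in naive cells. Incenp, the scaffold, differed least between effector and resting cells within the complex, at 8.11-fold. It had 7443 in TOFA, 8078 in Rap and 8769 in control effector cells, 2238 in memory and 1081 in naive cells.

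The checkpoint kinases and adaptors delay anaphase until every kinetochore is attached. Bub1 had signals of 4278 in TOFA, 4485 in Rap and 6089 in control effector cells, 103 in memory and 112 in naive cells. Bub1b, or BubR1, had 2497 in TOFA, 2928 in Rap and 3026 in control effector cells, 67.2 in memory and 67.4 in naive cells. Mad2l1, which binds Cdc20, had 6401 in TOFA, 7400.3 in Rap and 7805 in control effector cells, 777 in memory and 742 in naive cells. For these 3 the memory and naive values were close together and far below the effector values. Ttk, the Mps1 kinase, had 1473 in TOFA, 2012 in Rap and 2183 in control effector cells, 59.2 in memory cells and a signal under the floor in naive cells, so the control effector signal was at least 50.3-fold above naive cells. Bub3 stood apart, with 9500.1 in TOFA, 10385 in Rap and 10167 in control effector cells, 5781 in memory and 5881 in naive cells. At 1.73-fold it was 1 of only 2 genes of the 52 that did not reach 2-fold in control effector over naive cells, but it passed 2-fold with the values as deposited, at 1.04 on the log2 scale, and with arrays centred on their median. Its 4 other probe sets gave 1.17, 0.11, -0.26 and -0.28. Bub3, the binding partner of Bub1 and BubR1, thus had a high signal for its own probe set in resting cells.

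Mitotic proteolysis ends the checkpoint. Cdc20, activator of the anaphase-promoting complex, had signals of 10028 in TOFA, 11861 in Rap and 10812 in control effector cells, 576 in memory and 616 in naive cells. Ube2c, its ubiquitin-conjugating enzyme, had 9448 in TOFA, 12082 in Rap and 12032 in control effector cells, 416 in memory and 283 in naive cells. Espl1, or separase, had 958 in TOFA, 1390.4 in Rap and 1293 in control effector cells, 93.9 in memory cells and a signal under the floor in naive cells. The fold of control effector over naive cells was 17.5 for Cdc20, 42.5 for Ube2c and at least 29.8 for Espl1. Cdca3, which helps to release Cdk1 for mitotic entry, had 3588 in TOFA, 4233 in Rap and 4957 in control effector cells, 204 in memory and 159 in naive cells. The genes of the anaphase-promoting complex itself differed far less. Of 15 genes listed for the complex, subunits and the other activator Fzr1, 2 reached a 2-fold higher signal in control effector over naive cells. The median of the 15 was 0.30, and 15.9% of all genes compared reached 2-fold.

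At the kinetochore, Cenpa, the histone that marks the centromere, had signals of 5764 in TOFA, 6938 in Rap and 8443 in control effector cells, 623 in memory and 1015 in naive cells. Cenpe, a kinetochore motor, had 2407 in TOFA, 2892 in Rap and 3185 in control effector cells, 84.4 in memory and 115 in naive cells. Ndc80, of the complex that grips microtubules, had 1566 in TOFA, 1705 in Rap and 1641 in control effector cells, 95.4 in memory and 191 in naive cells. Its partners Nuf2, Spc24 and Spc25 were 44.3-fold, 19.4-fold and 22.2-fold above naive cells in control effector cells, and Ndc80 itself 8.58-fold. Nuf2 had 2063 in TOFA, 2659 in Rap and 2933 in control effector cells, 124 in memory and 66.3 in naive cells. Spc24 had 2016 in TOFA, 2178 in Rap and 2208 in control effector cells, 77.2 in memory and 114 in naive cells. Spc25 had 2600.0 in TOFA, 3653 in Rap and 2762 in control effector cells, 157 in memory and 124 in naive cells. Among these subunits the Rap signal stood above both other effector arrays for Spc25 and, by less, for Ndc80. For Nuf2 and Spc24 the control was highest. Cenph and Cenpk belong to the inner kinetochore that sits on the centromere. Cenph had 1340.4 in TOFA, 1221 in Rap and 1419.7 in control effector cells, 67.3 in memory and 74.9 in naive cells. Cenpk had 1889.9 in TOFA, 2423 in Rap and 2102 in control effector cells, 55.2 in memory and 136 in naive cells. Cenpf, a protein of the outer kinetochore, had 2359.6 in TOFA, 3849.6 in Rap and 3231 in control effector cells, 99.6 in memory and 110.1 in naive cells. Rap was thus the lowest of the effector arrays for Cenph and the highest for Cenpk and Cenpf. Of 29 other kinetochore genes matched from a list of 31, 20 were at least 2-fold higher, with a median of 2.14, below the 4.28 of the 9 kinetochore genes described here.

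The kinesins move chromosomes and slide microtubules. Kif11, which pushes the spindle poles apart, had signals of 2424 in TOFA, 3211 in Rap and 2631 in control effector cells, 75.5 in memory and 109 in naive cells. Kif2c, a microtubule depolymerase, had 1723 in TOFA, 2389.6 in Rap and 2288 in control effector cells, 78.5 in memory and 93.7 in naive cells. Kif23, a midzone kinesin, had 1970.0 in TOFA, 2826 in Rap and 2675 in control effector cells, 276 in memory and 631 in naive cells. In all 3 the Rap array was the highest and TOFA the lowest of the effector arrays. The fold of control effector over naive cells was 24.1 for Kif11 and 24.4 for Kif2c, but 4.24 for Kif23 and 4.49 for the chromokinesin Kif22. The Kif22 value, 2.17 on the log2 scale, rests on the probe set chosen, since its other probe sets gave 3.20 and 4.27. For Kif23, at 2.08, the other probe sets gave 2.93 and 1.55. Kif22 had 3562 in TOFA, 4393 in Rap and 3594 in control effector cells, 620.1 in memory and 801 in naive cells. Kif20a, another midzone kinesin, had 1551 in TOFA, 2400.2 in Rap and 2163 in control effector cells, a signal under the floor in memory cells and 73 in naive cells. Kif18a, which damps chromosome movements, had 665 in TOFA, 776 in Rap and 797 in control effector cells, again a signal under the floor in memory cells and 63.9 in naive cells. Kif4, a chromokinesin, kept the same arrangement of high effector and low resting signals, with 1129 in TOFA, 1257 in Rap and 1303 in control effector cells, 70.5 in memory and 87.4 in naive cells.

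Among spindle assembly factors, Tpx2, which activates Aurka on microtubules, had 2460.0 in TOFA, 2752 in Rap and 2948 in control effector cells, 109.8 in memory and 103 in naive cells. Prc1, which bundles midzone microtubules, had 1748 in TOFA, 2251 in Rap and 2526 in control effector cells, 245 in memory and 149 in naive cells. Both were lower in TOFA than in control effector cells, Prc1 by 0.53 and Tpx2 by 0.26 on the log2 scale. Tacc3, which stabilizes microtubule bundles, had 1847 in TOFA, 2162 in Rap and 2367 in control effector cells, 149.9 in memory and 165 in naive cells. Nusap1, a microtubule-binding protein, had 7138 in TOFA, 9637 in Rap and 8414 in control effector cells, 380.3 in memory and 286 in naive cells. Dlgap5, which stabilizes fibres near the chromosomes, had 1495 in TOFA, 1676 in Rap and 1943 in control effector cells, 159.8 in memory and 211 in naive cells. For Nusap1 the Rap signal was above control, and for Tacc3 and Dlgap5 below it. Spag5, or astrin, had 1226 in TOFA, 1540.5 in Rap and 1490.0 in control effector cells, with both resting signals under the floor, the only gene of the 52 for which that held. It was at least 34.3-fold higher in control effector than in either resting population. In cytokinesis, Ect2, which activates RhoA at the cleavage site, had 1888 in TOFA, 2269 in Rap and 2558 in control effector cells, 107 in memory and 116 in naive cells. Racgap1, partner of both Ect2 and Kif23, had 2031 in TOFA, 2405 in Rap and 2257 in control effector cells, 228 in memory and 168 in naive cells.

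Condensins and topoisomerase shape the chromosomes. Top2a had signals of 20261 in TOFA, 24059 in Rap and 20615 in control effector cells, 882 in memory and 742 in naive cells. Smc2, a core subunit of both condensins, had 7904 in TOFA, 8593 in Rap and 8582 in control effector cells, 1141 in memory and 1149.6 in naive cells. Smc4, its partner, had 11934 in TOFA, 13029 in Rap and 13048 in control effector cells, 5955 in memory and 18317 in naive cells. Smc4 was therefore highest in naive cells, the opposite of the other genes. Control effector cells had 1.4-fold less, and the 3 Smc4 probe sets gave log2 differences of -0.49, -0.67 and -0.61 in that comparison. The subunits Ncapd2, Ncapg, Ncaph and Ncapg2, which are found with Smc2 and Smc4 in the complexes, were 12.2-fold, 25.7-fold, 15.8-fold and 23.5-fold above naive cells in control effector cells. Ncapd2 had 2466 in TOFA, 3550.2 in Rap and 3065 in control effector cells, 206 in memory and 251 in naive cells. Ncapg had 2664 in TOFA, 2477 in Rap and 2895 in control effector cells, 54.3 in memory and 113 in naive cells, and Ncaph had 3429 in TOFA, 3927 in Rap and 4460.4 in control effector cells, 358 in memory and 282 in naive cells. Both are condensin I subunits, and for Ncapg Rap was the lowest of the effector arrays. The proliferation marker Mki67, a coat protein of mitotic chromosomes, had 13229.5 in TOFA, 15835 in Rap and 14779.5 in control effector cells, 1088 in memory and 559.6 in naive cells.

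In TOFA against control effector cells the shift was small and nearly one-sided. All 52 genes were lower, where 48.6% of the 12850 genes compared were. With each array centred on its median 43 of 52 were lower, where 38.3% of all genes were. With the values as deposited 51 of 52 were lower, where 51.1% of all genes were. The median was -0.29, or 81.6% of the control signal, and single genes lay between 60.2% and 99.1%, while the median over all genes compared was 0.01. A signal of at most 80% of control was found for 24 of 52 genes, and for 18.7% of all genes. No gene was 2-fold apart, with 0 higher and 0 lower, where 2.47% and 2.15% of all genes were. Among 4205 genes with a mean signal of at least 1000, a background chosen after the data were seen, 48.1% were lower and 10.4% were at most at 80% of control.

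The size of the shift varied among the genes, while probe sets of 1 gene differed with an SD of 0.24 in this comparison. The order of genes and roles below was not tested. The TOFA signal was at or below 75% of control for 17 genes and above 90% for 15, levels at which all genes compared were not counted. The quartiles were -0.44 and -0.14 for the 52 genes, and -0.23 and 0.26 for all genes compared. Furthest lower were Aurkb at -0.73, Ccnb2 at -0.62 and Nek2 at -0.58, followed by Ttk at -0.57, Cenpa at -0.55 and Prc1 at -0.53. Least different were Kif22 at -0.01, Top2a at -0.03 and Ndc80 at -0.07, values that lie at or above 0 when arrays are centred on their median. The Kif22 value rests on the probe set chosen, since its other 2 probe sets gave -0.45 and -0.66. By role the median was -0.48 for cyclins and Cdk1, -0.41 for kinases and -0.39 for proteolysis, against -0.15 for kinetochore proteins and -0.13 for condensins with Top2a. With arrays centred these were -0.38, -0.27 and -0.30, against -0.003 for the 9 kinetochore genes, 5 of them lower, and -0.08 for condensins. The median over all genes compared was 0.11 with arrays centred and 0.01 without. Within the kinetochore group, Cenpa, Cenpe, Cenpf and Nuf2 had differences of -0.55, -0.40, -0.45 and -0.51. Cenph, Ndc80, Spc24 and Spc25 had -0.08, -0.07, -0.13 and -0.09, and these 4 lay at or above 0 with arrays centred on their median. The other Spc25 probe set gave -0.40, so its place among these 4 rests on the probe set chosen. The other probe sets above the floor gave -0.88 for Cenpa, -0.34 for Cenpe, and -0.19 and -0.79 for Cenpf. Mki67 was at -0.16.

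Of 110 probe sets that were above the floor in at least 1 of the arrays, 107 were lower in TOFA than in control effector cells, 3 of them by at least 2-fold, with a median of -0.34. The 3 that were higher were 1 each of Aurka, Bub3 and Cenpk, at 0.10, 0.18 and 0.29, and for none was it the brightest of its gene. Probe sets reading 1 gene differed from each other with an SD of 0.24 over 35 genes, and 33 of the 52 genes were lower by more than that. Genes read by 1 probe set do not enter this SD. The lower quartile of all genes compared was -0.23. The median shift was -0.26 in the brighter 26 genes and -0.33 in the dimmer 26. It was -0.29 over 32 genes with a CHR match and -0.31 over 12 without, and a link to the promoter letters was not tested. The 9 myeloid markers summed to 529 in TOFA and 291 in control effector cells, and the 8 dendritic markers to 1219 in TOFA and 2564 in control effector cells. Of the 7 Th1 markers 4 were higher and 3 lower in TOFA than in control effector cells, with a median of 0.18 and a summed signal of 29029 in TOFA and 42322 in control effector cells. The part of such differences in the shift was not tested.

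**Figure D2:**
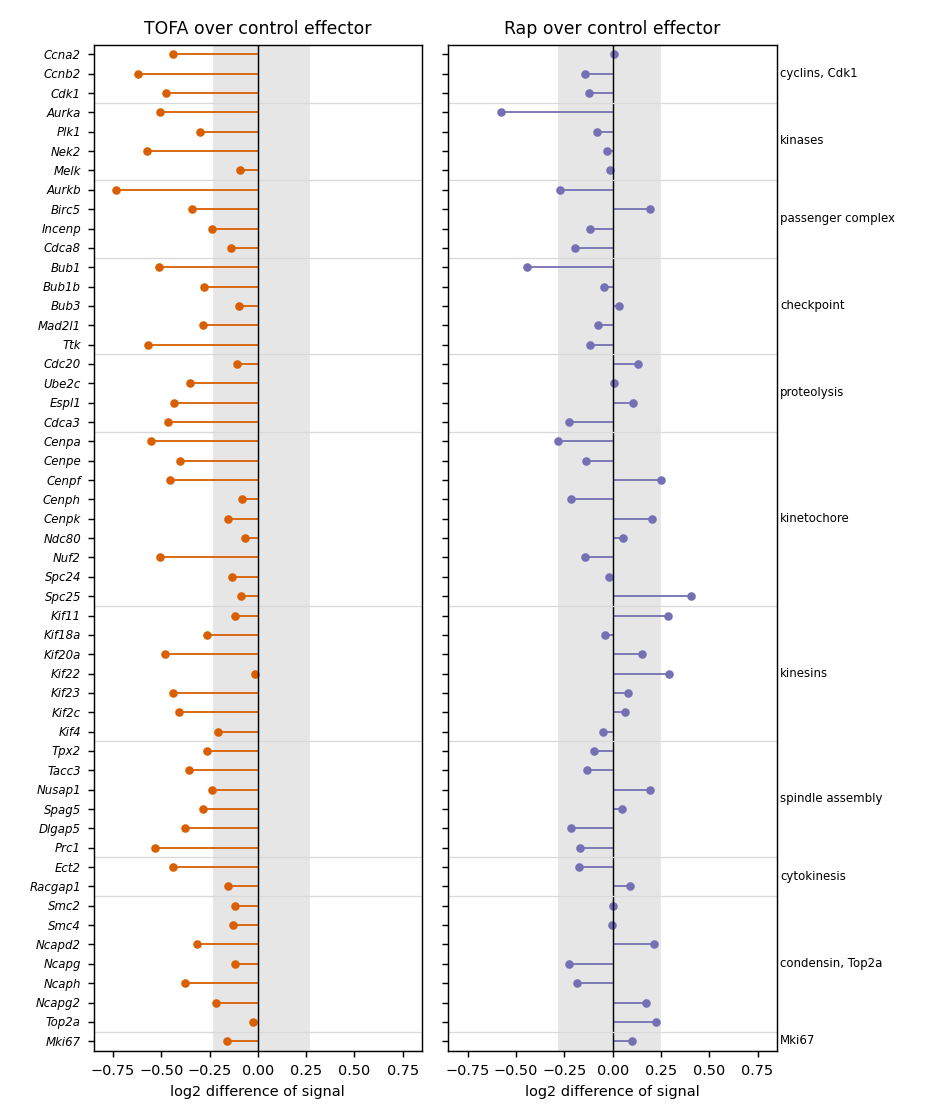
Log2 difference of each of the 52 genes in TOFA and in Rap over control effector cells, ordered by role, with a grey band for the range between the quartiles of all genes compared. TOFA values run from -0.73 to -0.01, all below 0 (43 of 52 with arrays centred on their median, 51 of 52 as deposited), and Rap values from -0.58 to 0.40 on both sides of 0 (29 of 52 below it, 23 with arrays centred). With arrays centred, 38.3% of all genes compared were below 0 in TOFA and 46.6% in Rap.

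In Rap against control effector cells the same genes showed no common shift. Of 52 genes, 29 were lower and 23 higher, where 50.4% of 12851 genes compared were lower and 49.5% higher, and the median was -0.02. With arrays centred on their median 23 were lower and the median was 0.01, where 46.6% of all genes were lower and their median was 0.03. At least 2-fold higher were 0 genes, where 1.82% of all were, and at least 2-fold lower 0, where 3.91% were. At most at 80% of control were 2, Aurka at -0.58 and Bub1 at -0.44, where 21.9% of all genes were. At least 25% higher was 1, Spc25 at 0.40, where 19.4% were. In the background of 4205 genes with a mean signal of at least 1000, 516 were at most at 80% and 585 at least 25% higher. The other probe set went the opposite way for Aurka, at 0.64, and for Bub1, at 0.30, and the same way for Spc25, at 0.10. The next furthest were Cenpa at -0.28 and the kinesins Kif22 and Kif11, both at 0.29. The other probe sets of Kif22 went the opposite way, at -0.28 and -0.03, and those of Kif11 gave 0.25 and -0.08. The other Cenpa probe set above the floor gave -0.32. Of 61 other probe sets, 35 went the same way as the brightest of their gene. Probe sets reading 1 gene differed with an SD of 0.30 here, and 59 of 113 probe sets were lower. Birc5, Nusap1 and Top2a were higher in Rap than in control effector cells, at 0.19, 0.20 and 0.22, all within that SD.

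The 2 treatments were also set directly against each other, with the caution that it shares its arrays with the comparisons above. In TOFA against Rap effector cells 48 of 52 genes were lower, where 47.3% of 12802 genes were, with a median of -0.26 and a median over all genes of 0.02. With arrays centred on their median 45 were lower, where 41.3% of all genes were. At most at 80% of the Rap signal were 22 genes, where 16.5% of all genes were. There were 0 at least 2-fold higher and 0 at least 2-fold lower, where 3.28% and 1.35% of all genes were. Furthest lower were Cenpf at -0.71, Kif20a at -0.63 and Nek2 at -0.55. The 4 genes that were not lower were Cenph at 0.13, Ncapg at 0.11, Aurka at 0.07 and Cdca8 at 0.05. For Cenpf and Kif20a the Rap signal was above the control and the TOFA signal below it. The control was the highest of the 3 effector arrays for 29 genes and Rap for 23, where the shares of the 14522 genes above the floor were 33.3% and 32.4%.

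**Figure D3:**
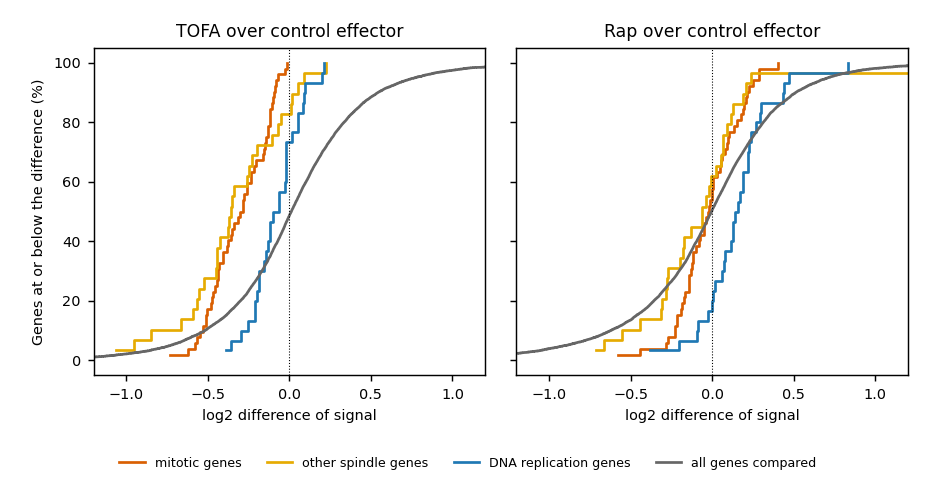
Cumulative share of genes by log2 difference in TOFA and in Rap over control effector cells, for the 52 mitotic genes, the other spindle genes, DNA replication genes and all genes compared. For TOFA the mitotic genes have a median of -0.29, against 0.01 for all genes (-0.17 and 0.11 with arrays centred on their median), and for Rap -0.02 (0.01 with arrays centred).

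Other genes of cell division, listed by function, showed where the shift in TOFA against control effector cells extended. Of all 12850 genes compared, 48.6% were lower, 18.7% were at most at 80% of control and 2.15% were at least 2-fold lower. Of 29 further spindle and centrosome genes compared, 24 were lower, with a median of -0.36. Among them, 17 were at most at 80% of control and 1 was at least 2-fold lower. The furthest were Cit, a cytokinesis kinase, at -1.06, with signals of 379 in TOFA, 701 in Rap and 789.8 in control effector cells, and the kinesin Kif20b at -0.95, with 865 in TOFA, 1353 in Rap and 1674 in control effector cells. The further kinetochore genes had a median of -0.07 with 19 of 29 lower, and with arrays centred on their median this turned to 0.07. Centring also moved the median over all genes compared, from 0.01 to 0.11. DNA replication genes, which act in S phase before mitosis, had a median of -0.08, with 22 of 30 lower but only 2 at most at 80% of control, and with arrays centred the median was 0.00. Mcm5, of the replicative helicase, had 9695 in TOFA, 12092 in Rap and 9826 in control effector cells, and the polymerase clamp Pcna had 28142 in TOFA, 29760.3 in Rap and 29429 in control effector cells. Cohesin genes had a median of -0.17 with 12 of 16 lower, or -0.04 with arrays centred, and subunits of the anaphase-promoting complex -0.07 with 10 of 15 lower, which turned to 0.08 with arrays centred. Genes of mitotic entry and exit had a median of -0.04, turning to 0.09 with arrays centred, yet Cdc25b, the phosphatase that activates Cdk1, was at -0.63. Its signals were 892 in TOFA, 1311 in Rap and 1384 in control effector cells. Pttg1, or securin, which holds separase inactive, had 14683 in TOFA, 15774 in Rap and 16055 in control effector cells, a difference of -0.13 for TOFA over control.

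Among the 23 genes of the transcription machinery of the cell cycle, the median in TOFA over control effector cells was -0.06. It turned to 0.06 with arrays centred on their median, where the median over all genes compared was 0.11. Foxm1, which drives late cell cycle genes, had signals of 281 in TOFA, 461 in Rap and 433 in control effector cells, 113 in memory and 69.7 in naive cells. Its difference was -0.62 in TOFA and 0.09 in Rap over control effector cells. Mybl2, or B-Myb, had 387 in TOFA, 544 in Rap and 496 in control effector cells, 56.4 in memory and 49.1 in naive cells, and E2f1, which acts at the entry to S phase, had 452 in TOFA, 538 in Rap and 560.2 in control effector cells, 152 in memory and 71.2 in naive cells. Foxm1, Mybl2 and E2f1 were thus lowest in TOFA among the effector arrays and lower still in resting cells, the order seen in most of the 52 genes. Rbl2, or p130, a repressor in DREAM, had 1994 in TOFA, 2216 in Rap and 3047 in control effector cells, 2740.4 in memory and 2987 in naive cells. E2f4, its partner, went the other way, with 129 in TOFA and 139.6 in Rap, against 57.3 in control effector cells, 77.6 in memory and 62.8 in naive cells. All of these E2f4 signals lie under the 60th percentile of 150.5, and the control value lies near the floor of 43.4. In Rap over control effector cells this list had a median of 0.21. DNA replication genes had 0.15 with 24 of 30 higher, where 49.5% of all genes compared were higher.

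**Figure D4:**
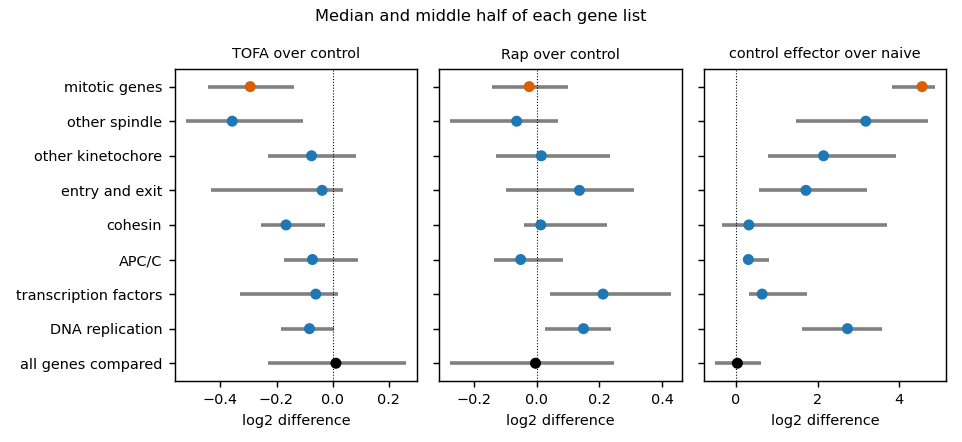
Median and quartiles of the log2 difference for the 52 genes, for 7 other lists of cell division genes and for all genes compared, in TOFA over control, Rap over control and control effector over naive cells. In TOFA over control effector cells the 52 genes, at -0.29, and the further spindle and centrosome genes, at -0.36, lie lowest. The lists near 0 (kinetochore, entry and exit, transcription, anaphase-promoting complex) change sign with arrays centred on their median. The median over all genes compared then rises too, from 0.01 to 0.11.

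Memory and naive cells were both low for the mitotic genes, and their difference had no common direction. Of 51 genes above the floor in at least 1 of these arrays, 32 were lower and 19 higher in memory than in naive cells, where 53.5% of 13082 genes were lower and 46.4% higher, with a median of -0.11. The direction of that median depended on scaling, since it was 0.13 with the values as deposited, where 19 of 52 were lower, and -0.30 with arrays centred, where the median of all genes was -0.36. At least 2-fold higher were 3 genes, where 12.6% of all genes were, and at least 2-fold lower were 5, where 4.14% were. The markers of myeloid, B, neutrophil and dendritic cells that were higher in the memory array moved with this comparison, and their part in it was not tested.

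The highest of the 3 was Ncapg2, a subunit of condensin II read by 1 probe set. It had a signal of 823 in memory and 133 in naive cells, a 6.18-fold difference, against 2692 in TOFA, 3525 in Rap and 3124 in control effector cells. Espl1 was at least 2.16-fold higher, since its naive signal lay under the floor, and Incenp 2.07-fold. The 3 other Incenp probe sets above the floor gave 0.93, 0.07 and -0.46 on the log2 scale, so they do not share 1 direction, and Incenp was under 2-fold with the values as deposited and with arrays centred on their median. Lower in memory than in naive cells were Smc4 by 3.08-fold, Cenpk by 2.46-fold, Kif23 by 2.28-fold, Ncapg by 2.08-fold and Ndc80 by 2.01-fold. All 3 Smc4 probe sets went the same way, with differences of -1.62, -1.92 and -1.72, whereas the other Ncapg probe set gave 0.69. With the values as deposited, only Smc4 and Kif23 of these 5 were still 2-fold lower, with Cenpk at -0.95, Ndc80 at -0.71 and Ncapg at -0.67. Cenpk had signals of 55.2 in memory and 136 in naive cells, both low beside 1889.9 in TOFA, 2423 in Rap and 2102 in control effector cells. All 7 kinesins were lower, with a median of -0.53, though only 5 with the values as deposited. Mki67 was 1.94-fold higher in memory cells. Probe sets reading 1 gene differed with an SD of 0.44, and 13 genes were lower and 8 higher by more than that. The quartiles were -0.43 and 0.31 for these genes, and -0.37 and 0.39 for all genes compared.

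Against control effector cells, memory cells were lower for all 52 genes, where 51.6% of the 13326 genes compared were, and 51 were at least 2-fold lower, where 14.1% of all genes were. At least 2-fold higher were 0, where 14.5% of all genes were. The median was -4.51, or 22.7-fold lower, and 110 of 110 probe sets compared were lower, 100 of them at least 2-fold. Furthest lower among genes above the floor on both arrays were Bub1 by 59.1-fold, Aurkb by 58.6-fold and Ncapg by 53.3-fold. Least different were Bub3 by 1.76-fold, Smc4 by 2.19-fold and Ncapg2 by 3.79-fold, followed by Incenp by 3.92-fold and Kif22 by 5.8-fold. The chosen Kif22 probe set gave -2.53 on the log2 scale, and its other probe sets gave -3.82 and -5.09. Kif20a was under the floor in memory cells and at least 49.9-fold lower, Melk at least 45.3-fold, Spag5 at least 34.3-fold and Kif18a at least 18.4-fold. The marker sums of other cells in the memory array, 83898 for myeloid against 291 in control effector cells and 47963 for B cells against 1803, stand beside this difference, and their part in it was not tested.

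**Figure D5:**
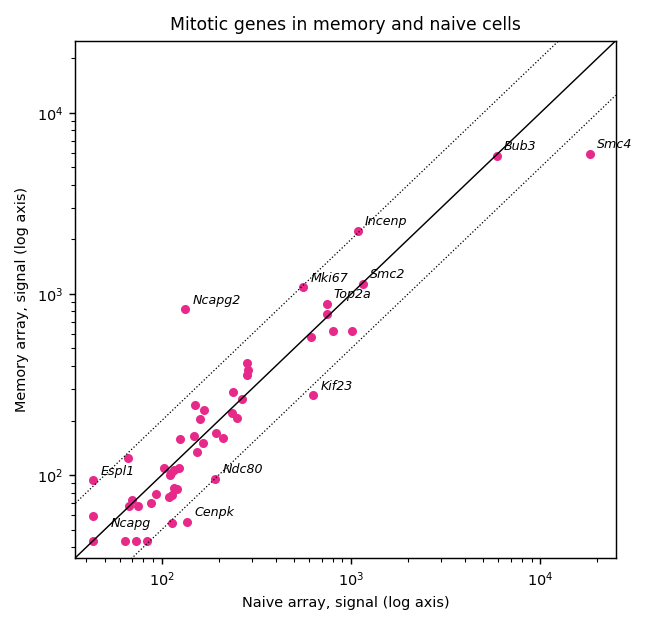
Signal of each of the 52 genes in memory cells against naive cells, on log scales, with dotted lines at 2-fold and signals under the floor drawn at the floor. Most genes lie between the lines at low signals, Ncapg2 lies above them, and Smc4 lies below them at the high end.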

How the data were processed

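Signals came from 5 Affymetrix mouse arrays, 1 per group. The deposited values are intensity, a linear signal per probe set, made with GCOS and Affymetrix Expression Console per the submitters' processing notes, with versions and algorithm not given in the sources used here. Trimmed by 2%, each array had a mean of 500.003. Since the log2 medians of the arrays spanned 0.658, above a limit of 0.5, the arrays were quantile normalized and a floor was set at the 40th percentile. After 64 control probe sets were left out, 34945 of 45037 probe sets had 1 symbol in the 2016 platform annotation, and the brightest above the floor stood for each gene. The 52 Entrez identifiers had the same symbols in RefSeq. A gene at the floor in both arrays of a comparison was left out of it. Calls were made from 2-fold, and shifts were also counted by sign and at 80% of the other array or less. No test between groups was made, since 1 array per group leaves none. The small number of arrays limits the precision.

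The members, the lists and the comparisons were chosen with earlier results of these data known. Named genes were a fixed set of members and other division genes, the 3 members furthest each way in each comparison, and the 3 genes of other lists with the largest differences. Promoter letters were searched with Python 3.11.15, and tables made with numpy 2.4.6 and pandas 2.3.3. The procedure was tested on simulated data with 200 changed genes. The alternatives were the deposited scale, median centring, floors at the 20th and 60th percentiles, an added constant, the mean of all probe sets, and leaving out probe sets ending in _x_at or _s_at.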

Additional observations from a re-analysis of the deposited data

How the results depend on the processing

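Over 7 alternatives and 24 counts and medians, 150 of 168 values were counted as close to those reported and 18 as moved. For medians the limit was 0.1 on the log2 scale. Counted as close were falls with arrays centred from 52 to 43 genes lower in TOFA and from 29 to 23 in Rap, each against control. The sign of 2 medians turned, in memory against naive cells as deposited and in Rap against control effector cells, where the median was 0.01 with arrays centred. In TOFA against control effector cells the median of the 52 genes moved to -0.17 with arrays centred on their median, where the median of all genes was 0.11 and 51 of 52 genes lay below it. Of the genes at or above 0 there, Melk, Cenph, Ndc80, Spc24, Spc25, Kif11, Kif22, Ncapg and Top2a, only Kif22 was at or above 0 with the values as deposited. Without probe sets ending in _x_at or _s_at, 50 of 51 genes were lower and Bub3 was the exception. In control effector against naive cells the median was 4.03 with the floor at the 60th percentile, 4.06 with the added constant and 3.93 with the mean of all probe sets. In memory against control effector cells it was -4.22 as deposited, -4.75 centred, -3.88 with the higher floor, -4.14 with the constant, -3.79 with the mean of probe sets and -4.23 without _x_at and _s_at. In memory against naive cells it was 0.13 as deposited and -0.30 centred. The genes at least 2-fold lower there numbered 2 as deposited, with the higher floor, with the constant and with the mean of probe sets, and those below 0 numbered 19 as deposited and 15 of 29 with the higher floor. The cause of these moves was not tested. No paired analysis was possible because each group has 1 array and the labels carry no replicate numbers. With no replicate arrays, no difference given here has an error between samples, and low signals near the floor give only bounds.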

Other observations

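Tk1, the thymidine kinase of S phase, had a signal of 235 in memory and 51.1 in naive cells, 4.59-fold higher, against 2111 in TOFA, 2616 in Rap and 2511 in control effector cells. Of the further kinetochore genes, Spdl1, which brings dynein to kinetochores, had 174 in memory and 65.5 in naive cells, a difference of 1.41 on the log2 scale. Nsl1, of the Mis12 complex, was at least 2.98-fold higher in memory cells, with 129 in memory cells and a signal under the floor in naive cells. Troap, a spindle protein, had 231 in Rap effector cells, against 98.6 in TOFA and 97.8 in control effector cells. Gins3, of the replicative helicase, had 766 in Rap, against 459 in TOFA and 430.0 in control effector cells. E2f7, a repressor among the E2F factors, had 718 in TOFA, 1369 in Rap and 1005 in control effector cells, so the 2 treatments lay on opposite sides of the control. The E2F partner Tfdp2 had 631 in TOFA, 1240.0 in Rap and 977 in control effector cells.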
